A study of Danio rerio with 49 samples.

Results

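The long arm of zebrafish chromosome 4 was followed through spinal cord injury by way of the annotated genes that start at or beyond base 28000000 of this chromosome (danRer11 build). Of 1610 such genes with an Ensembl identifier, 594 reached a mean of at least 0.1 FPKM over the 49 libraries, and these are the long-arm genes described here. FPKM is the number of sequenced fragments assigned to a gene per kilobase of its length, scaled by a total for each library. The total implied by the deposited values was 0.624 to 1.07 times the fragments on genes in control libraries and 0.714 to 1.56 times in injured ones. The deposited scale is thus not the plain total of fragments on genes. The listed long-arm genes run from base 28062473 to base 78068331, a stretch of 50.0 Mb with 32.2 listed genes per Mb. The genes that start before base 28000000 are called the rest of chromosome 4, and 582 of 728 of them passed the same filter. Of all 40085 listed genes 28272 passed, and each test was run on all of them. An Ensembl identifier was carried by 21858 of the 28272, so the values over all tested genes also include loci without one.

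The libraries were made from bulk spinal cord of wild-type AB fish, which the study's methods describe as juvenile or adult animals aged 6 to 8 weeks. In the injured fish the cord had been cut through completely at the seventh segment, and 5 segments rostral or 5 segments caudal to the cut were taken at 1, 2, 4 or 6 weeks post injury (wpi), while the corresponding segments of uninjured fish served as controls. Each of the 10 groups had 5 libraries, except the caudal segments at 6 wpi, where 4 libraries were analysed here. The methods give 3 fish per group and pooled tissue, and do not say which libraries came from separate pools, so the p-values measure the spread between libraries, which may be technical.

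In zebrafish the long arm of chromosome 4 is known as a largely heterochromatic, late-replicating and repeat-rich region. It carries large tandem families of zinc finger genes, whose products are mostly predicted DNA-binding proteins, and of NLR genes, which encode predicted intracellular immune sensors, together with many copies of small nuclear RNA and 5S rRNA genes. The mir-430 cluster, whose microRNAs clear maternal mRNAs in the early embryo, also lies there. Close to the chromosome end the arm carries genes of a more ordinary kind, among them the ms4a17a family, which encodes membrane-spanning proteins related to the mammalian MS4A family of immune cell surface proteins.

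The total of fragments assigned to genes ranged from 4359571 to 26940599 per library, and the long-arm genes took 6796 to 44086 of them. The median long-arm gene had a median of 10 fragments per library, against 96 in the rest of chromosome 4 and 61 over all tested genes. For 287 of the 594 genes (48.3%) the median was under 10 fragments, against 119 of 582 (20.4%) in the rest of chromosome 4. The myelin genes mbpa and plp1b and the neuronal genes ELAVL3 and ELAVL4 were read in all groups.

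Long-arm genes were low in every group. Their median level was 0.336 FPKM, with quartiles at 0.166 and 0.733, against 2.18 FPKM (0.587 to 7.38) in the rest of chromosome 4 and 1.44 FPKM over all tested genes. Only 116 long-arm genes (19.5%) reached 1 FPKM, against 385 (66.2%) in the rest of chromosome 4. A level of 10 FPKM was reached by 9 long-arm genes and by 117 genes of the rest. Fragments were found in all 49 libraries for 311 long-arm genes (52.4%) and for 466 genes of the rest (80.1%). These are differences between 2 sets of genes of unlike kind, and no test was run on them. The genes on both sides of the border were alike in level. CERK, ceramide kinase, is the last gene before base 28000000 (bases 27898833 to 27953778) and had a mean of 2.95 FPKM, and GRAMD4, the first gene past it, had 2.90 FPKM. At the lower end of the level filter, si:ch211-271g18.4 was the lowest gene kept (0.1003 FPKM) and a U1 gene (ENSDARG00000080512, 0.0999 FPKM) the highest one left out.

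The long-arm genes as a group lay higher in injured than in uninjured cord. To show this per library, the log2(FPKM + 0.1) value of each gene was taken relative to its own mean over the 49 libraries, and the median of these deviations over the 594 genes was formed in each library. The uninjured rostral libraries were at −0.10, −0.50, −0.26, −0.29 and −0.13, and the uninjured caudal libraries at −0.15, −0.52, −0.20, −0.24 and −0.04. All 10 control libraries were thus below 0. Injured libraries ranged from −0.35 to 0.34, and 28 of 39 were above the highest control library, while 3 were below the control median. The mean was −0.24 ± 0.16 (SD, n = 10) in control and 0.04 ± 0.15 (SD, n = 39) in injured libraries. The lowest injured libraries were rostral 1 wpi replicates 1 (−0.35) and 2 (−0.20), caudal 1 wpi replicate 2 (−0.24) and caudal 4 wpi replicate 3 (−0.22). The 4 caudal libraries at 6 wpi were all above 0, at 0.05, 0.07, 0.11 and 0.19. For the rest of chromosome 4 the same medians stayed between −0.06 and 0.03 in control and between −0.03 and 0.07 in injured libraries. The level filter was taken over all 49 libraries for both sets, so a gene can enter through its injured libraries. In the 10 control libraries alone, 496 of the 594 long-arm genes passed the filter. The medians of these 496 genes alone were not formed. In bulk tissue a change in the number of cells that express a gene and a change in RNA per cell cannot be told apart, and this holds for every result below.

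**Figure D1:**
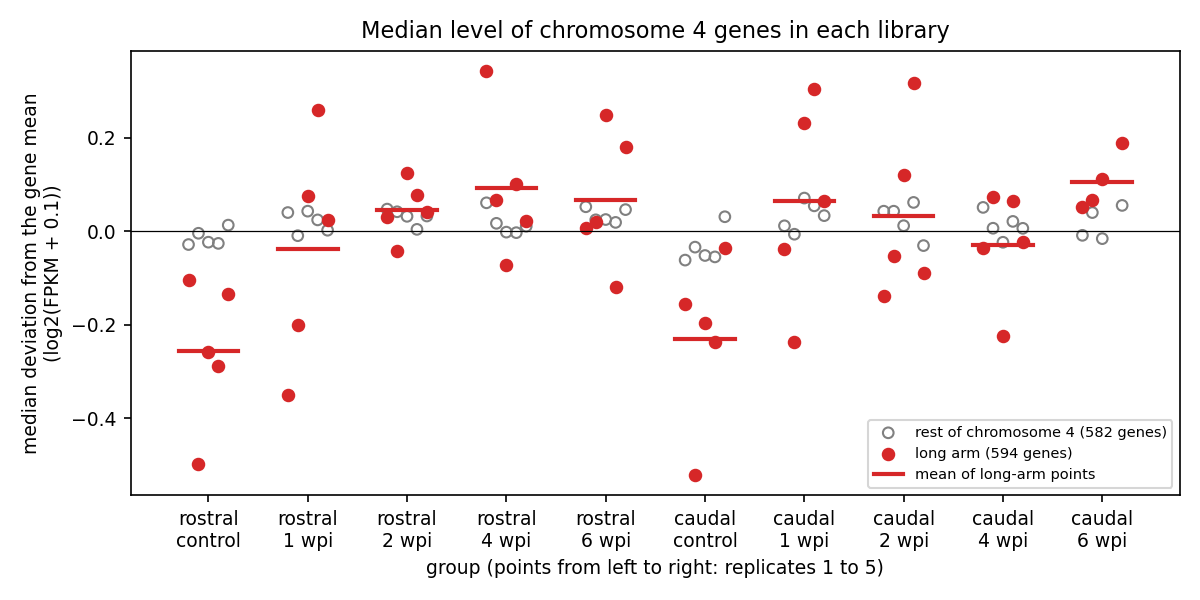
Median deviation of log2(FPKM + 0.1) from each gene's own mean, one point per library, for the 594 long-arm genes and the 582 genes of the rest of chromosome 4, by region and weeks post injury. All 10 control libraries lie below 0 for the long arm (−0.52 to −0.04), injured libraries reach from −0.35 to 0.34, and the rest of chromosome 4 stays between −0.06 and 0.07 in all libraries.

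The share of fragments was also compared. Long-arm genes took 0.0626% to 0.0945% of the fragments on genes in the 10 control libraries (median 0.0820%) and 0.0886% to 0.170% in the 39 injured libraries (median 0.125%). The rest of chromosome 4 took 0.963% to 1.54% in control (median 1.16%) and 1.09% to 1.88% in injured libraries (median 1.48%), so that a larger share after injury was not particular to the long arm. The long-arm ranges overlapped, and they did not do so within sets of replicate numbers. Among libraries numbered 1 to 3 the share was 0.0722% to 0.0945% in control and 0.111% to 0.170% in injured cord, and among libraries numbered 4 and 5 it was 0.0626% to 0.0788% and 0.0886% to 0.147%. The ms4a17a family made up a part of this share, 2.28% to 7.49% of the long-arm fragments in control and 4.62% to 15.7% in injured libraries. Without this family the long-arm share was 0.0579% to 0.0914% in control and 0.0799% to 0.154% in injured libraries.

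Each injured group was then compared with the uninjured group of the same region, with limma on log2(FPKM + 0.1) over all 28272 genes, and a gene was called at a Benjamini-Hochberg adjusted p under 0.05. The 4 rostral comparisons share the 5 uninjured rostral libraries and the 4 caudal ones the 5 uninjured caudal libraries, so they are not independent of each other. In rostral segments at 1 wpi, 14 of the 594 long-arm genes rose and 4 fell, while 6.21% of all tested genes rose and 3.46% fell. At 2 wpi, 40 rose and 3 fell, against 8.94% and 6.19% of all genes. At 4 wpi, 15 rose and 2 fell, against 4.97% and 1.46%. At 6 wpi, 9 rose and 0 fell, against 3.34% and 0.863%. At this time 3 long-arm genes were lower at an unadjusted p under 0.05 and 0 were lower by voom, and a fit blocked on the replicate number called 15 long-arm genes in place of 9. Of all 28272 tested genes 2006 were lower at rostral 6 wpi at an unadjusted p under 0.05. In percent, 3.03, 7.24, 2.86 and 1.52 of the long-arm genes were called at the 4 times, which is below the share over all genes in each case.

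In caudal segments the counts were highest at the first time point. At 1 wpi, 18 long-arm genes rose and 4 fell, against 7.65% and 5.58% of all genes. At 2 wpi, 11 rose and 1 fell, against 4.33% and 1.86%. At 4 wpi, 2 rose and 0 fell, against 1.07% and 0.209%. At 6 wpi, 1 rose and 0 fell, against 0.315% and 0.113%. At caudal 4 and 6 wpi 8 and 4 long-arm genes were lower at an unadjusted p under 0.05, and 0 were lower by voom. Of all 28272 tested genes 1572 and 1247 were lower at this unadjusted p. Uninjured caudal and rostral segments differed in 0 of the 594 genes at the adjusted threshold, by limma with and without the block and by voom. Of all tested genes 0.0212% differed in either direction without the block and 0.0460% with it. At an unadjusted p under 0.05, 8 of the 594 genes differed by limma without the block and 38 with it. Over the 8 injury comparisons 61 of the 594 long-arm genes (10.3%) were called at least once. Of the 594, 55 (9.26%) were called higher and 6 (1.01%) lower, and none both ways. In the rest of chromosome 4, 91 of 582 genes (15.6%) were called higher and 60 (10.3%) lower at least once. Long-arm genes were thus called less often than the rest of chromosome 4 in both directions. The share called at least once was not formed over all tested genes, of which 8.94% rose and 6.19% fell at rostral 2 wpi alone. The median long-arm gene had a median of 10 fragments per library, against 96 in the rest of chromosome 4. The part of this depth in the counts was not tested. The counts moved with single libraries. Leaving out 1 library at a time gave 8 to 19, 26 to 67, 7 to 19 and 1 to 12 genes at the 4 rostral times and 14 to 51, 5 to 37, 1 to 6 and 0 to 7 at the 4 caudal times. Without uninjured rostral replicate 5 the count at rostral 2 wpi was 67 in place of 43, and without uninjured caudal replicate 5 the count at caudal 1 wpi was 51 in place of 22.

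Below the threshold the long-arm genes leaned to one side. The median log2 change of the 594 genes in rostral segments was 0.23, 0.25, 0.31 and 0.32 at 1, 2, 4 and 6 wpi, and the caudal medians were 0.30, 0.22, 0.19 and 0.32. The quartiles at rostral 1 wpi were −0.14 and 0.61. Between 393 (66.2%, caudal 4 wpi) and 435 (73.2%, rostral 6 wpi) of the 594 genes had a change above 0. At an unadjusted p under 0.05, 60 long-arm genes were higher and 10 lower at rostral 1 wpi, and 73 were higher and 4 lower at caudal 6 wpi. Over all 28272 tested genes 3778 were higher and 3217 lower at rostral 1 wpi, and 2026 and 1247 at caudal 6 wpi. For the rest of chromosome 4 the 8 medians were 0.01 to 0.06, and over all tested genes they were −0.03 to 0.00. Between uninjured caudal and rostral segments the long-arm median was 0.02, and 315 of the 594 genes (53.0%) were above 0. The size of the long-arm median depends on the scale, since many values lie near the pseudocount: over the 8 comparisons it was 0.05 to 0.10 with a pseudocount of 1.

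Within sets of replicate numbers the median stayed above 0. With libraries numbered 1 to 3 alone it was 0.18, 0.29, 0.38 and 0.39 in rostral and 0.25, 0.26, 0.25 and 0.37 in caudal segments. With libraries numbered 4 and 5 alone it was 0.29, 0.20, 0.17 and 0.14 in rostral segments and 0.32, 0.23 and 0.12 in caudal segments at 1, 2 and 4 wpi, and caudal 6 wpi had too few libraries for this. Leaving out 1 library at a time gave medians of 0.11 to 0.37 over the 8 comparisons.

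Set beside whole chromosomes, the long arm was at the top of the order in each of the 8 injury comparisons. Medians per chromosome were taken over the tested genes with an Ensembl identifier. The medians of the other 24 chromosomes and of the rest of chromosome 4, 25 in all, were between −0.11 and 0.12 in the 8 comparisons, each below the long-arm median of its own comparison. The next in order were chromosome 3 at 1 wpi (0.06 rostral, 0.11 caudal) and chromosome 22 at 2 wpi (0.12 rostral, 0.09 caudal). A high rank was also seen without injury. Between uninjured caudal and rostral segments the long arm, at 0.020, was above 24 of the 25 others, which ran from −0.018 to 0.023. In windows of 5 Mb with at least 30 tested genes, all 11 long-arm windows had a median above 0 in each comparison, against 81 (caudal 6 wpi) to 150 (rostral 2 wpi) of 260 windows elsewhere. Single libraries were less uniform. From 40 to 45 Mb the median deviation from the gene means was above 0 in 17 of 39 injured libraries, with a median of −0.05 in injured and −0.13 in control libraries. By median log2 change the highest window elsewhere was at 0.17 to 0.39, and the highest long-arm window at 0.54 to 0.81. Single windows elsewhere still exceeded the median of the whole arm, 2 of 260 at rostral 1 wpi, 3 at rostral 2 wpi, 1 at caudal 1 wpi, 4 at caudal 2 wpi and 1 at caudal 4 wpi. These orders are descriptions, with no test.

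**Figure D2:**
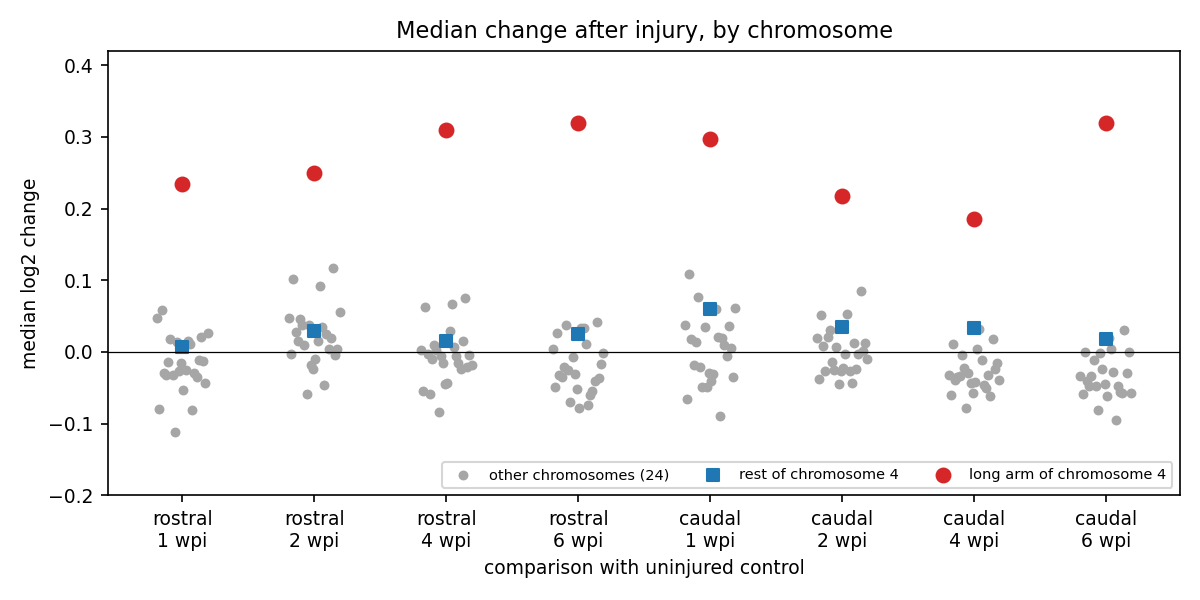
Median log2 change of the tested genes with an Ensembl identifier per chromosome in each of the 8 injury comparisons. The long arm of chromosome 4 is marked apart from the other 24 chromosomes and the rest of chromosome 4. The long arm is at 0.19 to 0.32 and the 25 others are between −0.11 and 0.12.

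The change was uneven along the arm. It was largest between 35 and 40 Mb. There the median of 31 genes at 1, 2, 4 and 6 wpi was 0.58, 0.81, 0.54 and 0.60 on the rostral side and 0.69, 0.80, 0.56 and 0.72 on the caudal side. The library medians of this stretch overlapped widely, at −0.89 to 0.22 (median −0.62) in control and −0.69 to 1.08 (median 0.17) in injured libraries. The median log2 change was next largest in the stretches from 30 to 35 Mb (0.29 to 0.56) and from 50 to 55 Mb (0.35 to 0.57). It was small from 28 to 30 Mb (0.02 to 0.23), from 45 to 50 Mb (0.04 to 0.27), from 65 to 70 Mb (0.02 to 0.36) and from 70 to 75 Mb (0.04 to 0.25). The 440 genes that start before 70 Mb include 99 of the 102 zinc finger genes and had a median level of 0.278 FPKM, and their median change was 0.19 to 0.39. The 154 genes beyond 70 Mb had a median level of 0.685 FPKM and include 8 of the 9 genes at 10 FPKM or more, and their median change was 0.09 to 0.28.

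The calls were spread differently from the medians. Beyond 70 Mb, 11, 12, 7 and 4 of 154 genes rose at rostral 1, 2, 4 and 6 wpi, and 11, 8, 2 and 1 rose at the same caudal times. Of all tested genes 6.21%, 8.94%, 4.97% and 3.34% rose at the rostral and 7.65%, 4.33%, 1.07% and 0.315% at the caudal times, which is close to the shares beyond 70 Mb. Before 70 Mb, 3, 28, 8 and 5 of 440 genes rose in rostral segments and 7, 3, 0 and 0 in caudal segments. At caudal 4 and 6 wpi, where limma called none of the 440, 34 and 61 of them were higher at an unadjusted p under 0.05, and voom called 0 and 1 higher. Of all 28272 tested genes 2374 and 2026 were higher at an unadjusted p under 0.05 at these times. At rostral 2 wpi 28 of 440 genes rose before 70 Mb and 12 of 154 beyond it, while 8.94% of all tested genes rose. At 1 wpi in both regions more of the genes that rose lay beyond 70 Mb, although this stretch holds fewer genes. The 61 genes called at least once were 40 of the 440 before 70 Mb and 21 of the 154 beyond it.

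**Figure D3:**
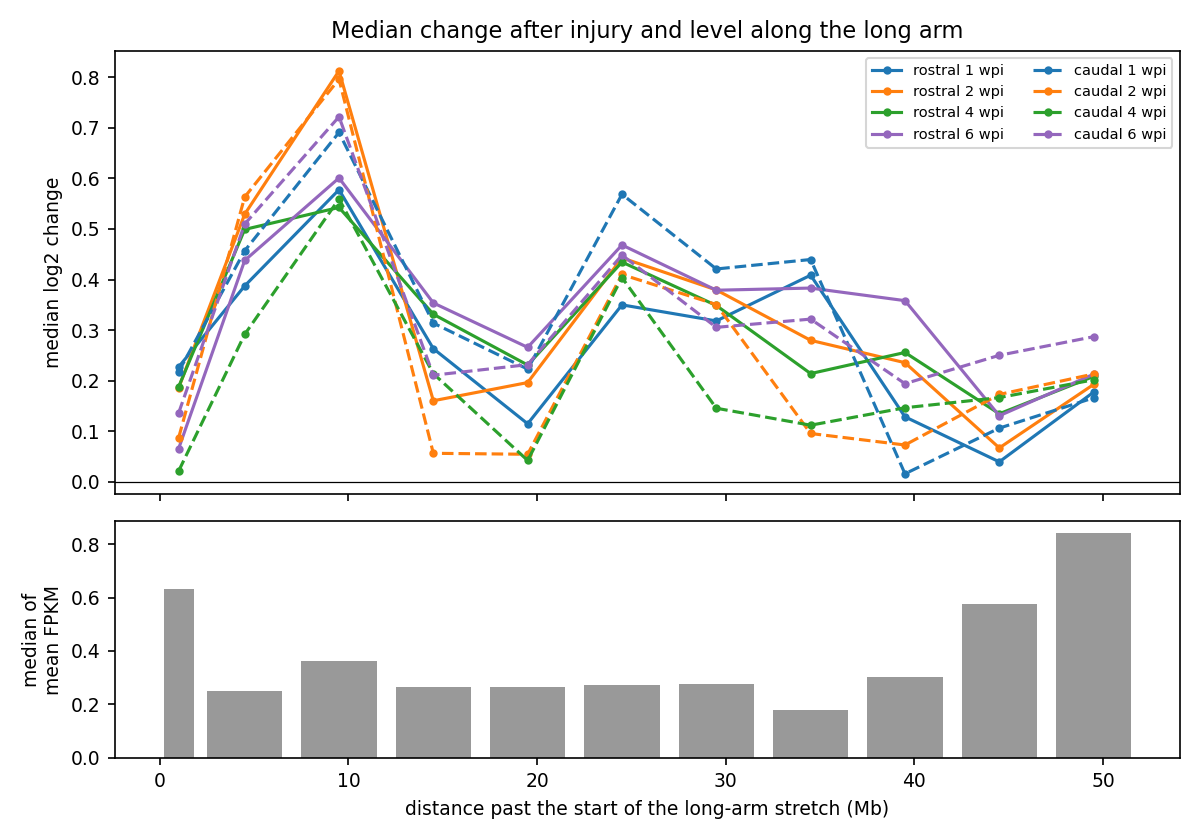
Median log2 change of the long-arm genes in stretches of 5 Mb along chromosome 4 (the first stretch runs from 28 to 30 Mb), one line per injury comparison. The stretch from 35 to 40 Mb is highest in each comparison (0.54 to 0.81), and the stretch from 70 to 75 Mb lies at 0.04 to 0.25.

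The spread of single genes between libraries of the same group depended on level. The median SD of log2 values within groups was 0.606 for long-arm genes and 0.446 for the rest of chromosome 4. In the 2 lowest classes of level, which hold 276 and 202 of the long-arm genes, it was below that of the rest, at 0.663 against 0.732 from 0.1 to 0.3 FPKM and 0.605 against 0.653 from 0.3 to 1 FPKM. Among genes of 1 to 3 FPKM (86 of the arm) it was 0.545 against 0.411, among those of 3 to 10 FPKM (21) 0.478 against 0.342, and among the 9 of 10 FPKM or more 0.406 against 0.363. The library medians described above had an SD within groups of 0.164 for the long arm and 0.028 for the rest. Rostral and caudal libraries of the same group and number moved together in them. Over 24 such pairs the correlation of their deviations was 0.686 for the long arm and 0.457 for the rest of chromosome 4, as a description, since paired libraries share number and time and may share fish. It was 0.877 for the stretch from 35 to 40 Mb, where the SD was 0.418, and 0.520 for the stretch from 75 Mb to the end, where the SD was 0.134. The correlation did not follow the SD along the arm. From 70 to 75 Mb it was 0.841 at the lowest SD of all stretches, 0.132, and from 45 to 50 Mb it was 0.520 at an SD of 0.213.

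A search for genes with 0 fragments in at least 10 libraries and 20 or more in at least 10 found 0 of the 594 long-arm genes. It found 1 gene in the rest of chromosome 4 and 69 over all tested genes. Single interior genes, chosen after their values were seen, were still close to absent in some libraries and read in others, in both regions alike. The gene si:dkey-207l24.2 (ENSDARG00000101688, bases 37760928 to 37766174, minus strand) was at 0.155, 0.859, 0, 0 and 3.10 FPKM in uninjured rostral libraries 1 to 5 and at 0.0576, 1.35, 0, 0 and 3.42 FPKM in uninjured caudal libraries 1 to 5. Replicates 3 and 4 held no fragment in either region, and replicate 5 was highest in both. At 4 wpi it was at 2.75, 2.25, 0.0181, 4.43 and 3.64 FPKM in rostral and at 2.29, 2.01, 0, 3.51 and 4.70 FPKM in caudal libraries, so that replicate 3 stood apart in both regions. Over the 49 libraries 9 were under 0.2 FPKM, and in the 24 rostral and caudal pairs of the same group and number both or neither were under it, 4 pairs being both.

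A zinc finger gene further along the arm behaved alike. The gene znf977 (ENSDARG00000087070, bases 39055027 to 39069529, plus strand) was at 1.81, 3.69, 0, 0.0398 and 2.43 FPKM in the uninjured rostral libraries and at 1.01, 3.86, 0.0985, 0.0658 and 2.80 FPKM in the uninjured caudal ones. At 4 wpi replicate 3 was at 0.0941 FPKM in rostral and 0.0460 FPKM in caudal segments, while the other 8 libraries were between 1.43 and 4.52 FPKM. It was under 0.2 FPKM in 7 of 49 libraries, in 3 pairs both and in 0 pairs one alone. The correlation over the 24 pairs was 0.952 for si:dkey-207l24.2 and 0.903 for znf977. Neither gene was called in any comparison, and both were chosen for their uneven levels after their values had been seen.

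The gene si:dkey-11n14.1 (ENSDARG00000101374, bases 30884012 to 31064584, minus strand) joined such unevenness with a rise. It was at 0.0812, 0.0465, 0.0164, 0.0120 and 0.0213 FPKM in the uninjured rostral libraries and at 0.0226, 0.0414, 0.0149, 0.0299 and 0.0390 FPKM in the uninjured caudal ones, which is 1 to 8 fragments per library. At caudal 1 wpi it was at 0.293, 0.517, 1.89, 2.14 and 0.406 FPKM. All 10 control libraries were below all 10 libraries of 1 wpi, where the lowest value was 0.139 FPKM. The control values were all under the level filter of 0.1 FPKM. The gene thus passed the filter only through its injured libraries, and its separation is given as a description. Its log2 change was 2.78 at caudal 1 wpi (SE 0.49, adjusted p = 0.0055), 2.05 at rostral 1 wpi (adjusted p = 0.0206), 2.01 at rostral 2 wpi (adjusted p = 0.0185) and 2.50 at caudal 2 wpi (adjusted p = 0.0305). At 4 wpi replicates 3 and 4 were at 0.0213 and 0.104 FPKM in rostral and 0.0185 and 0.0702 FPKM in caudal segments, while the other 3 libraries of each region were between 0.363 and 0.992 FPKM. The gene spans znf1099 and a row of U1 copies on both strands, and reads of overlapping genes cannot be told apart where strand was not used.

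By kind of gene, the lean to higher values was seen in zinc finger genes, in genes known by a clone name alone and in genes with no symbol. Of 143 long-arm genes with a znf symbol, 102 passed the level filter, at a median of 0.396 FPKM. Their rostral median log2 change was 0.32, 0.40, 0.34 and 0.40 at 1, 2, 4 and 6 wpi, and their caudal one 0.42, 0.26, 0.22 and 0.32. Between 69 (caudal 4 wpi) and 83 of the 102 had a change above 0. By the test, 9 of the 102 rose at rostral 2 wpi, where 8.94% of all tested genes rose, 2 rose at caudal 1 wpi (7.65% of all genes), 1 each at rostral 1 and 6 wpi (6.21% and 3.34%), and 0 fell in any comparison by limma or by voom. At an unadjusted p under 0.05, 3 (caudal 4 wpi) to 21 (rostral 2 wpi) of the 102 were higher and 0 were lower in each of the 8 injury comparisons, while over all tested genes 4655 were higher and 4041 lower at rostral 2 wpi. The 164 tested znf genes elsewhere in the genome, at a median level of 1.88 FPKM, had medians of −0.19 to −0.03, and at rostral 2 wpi 0 of them rose and 12 fell. Called zinc finger genes include znf1123 (ENSDARG00000094484), chosen after its values were seen. It was at 0, 0.124, 0, 0 and 0.114 FPKM in uninjured rostral libraries and at 0.252, 0.2996, 0.231, 0.777 and 0.149 FPKM at rostral 2 wpi, a log2 change of 1.55 (SE 0.40, adjusted p = 0.0275). These levels are 0 to 3 and 5 to 21 fragments, and a gene this low in controls can pass the level filter through its injured libraries.

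The 298 tested genes with a clone name alone had medians of 0.21 to 0.39, and clone-named genes elsewhere (2889 tested) −0.01 to 0.13. The 88 long-arm genes with no symbol had medians of 0.19 to 0.41, and those elsewhere (1307 tested) −0.09 to 0.03. The 34 other named genes of the arm, which include enzymes, channels and chaperonins, had medians of −0.09 to 0.15. None of the 2 genes with an NLR symbol passed the level filter, so the NLR families can be described here only as far as they carry clone names, which do not tell them apart.

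**Figure D4:**
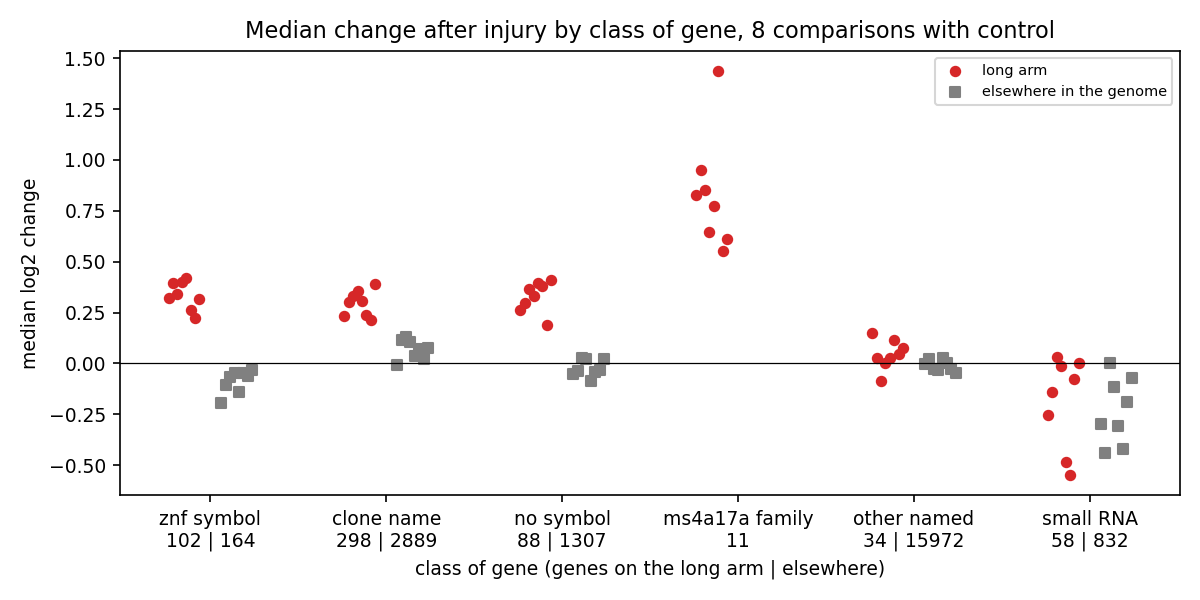
Median log2 change per kind of gene in the 8 injury comparisons, for long-arm genes and for genes of the same kind elsewhere in the genome. Long-arm zinc finger genes lie at 0.22 to 0.42 and zinc finger genes elsewhere at −0.19 to −0.03, and the 11 ms4a17a genes of the arm lie at 0.55 to 1.44.

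Small RNA genes did not share this lean. Of 476 listed on the arm, 58 passed the level filter, which their short length makes easy to reach, and their medians were −0.55 to 0.03, against −0.44 to 0.00 for small RNA genes elsewhere. By limma and by voom 0 of the 58 were called in any injury comparison, and 0 to 4 of them per comparison and direction had an unadjusted p under 0.05. All 58 together held 28 to 69 fragments per control library and 9 to 83 per injured library among libraries numbered 1 to 3, and 8 to 24 and 5 to 22 among libraries numbered 4 and 5. The mir-430 copies dre-mir-430b-5, dre-mir-430b-17 and dre-mir-430b-6 were among the 5 genes with the largest spread, and they held at most 4, 4 and 7 fragments in any library. A U1 gene (ENSDARG00000112345) of the same group of 5 held 0 to 10 fragments. The largest spread was that of ENSDARG00000116226, 157 bases long, which was at 0 in 32 of 49 libraries and held at most 16 fragments. At this depth no difference between groups was detectable for these genes.

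Some of the larger increases lay in the ms4a17a cluster, whose genes start between bases 76492691 and 76755294. This family was not among the kinds of gene fixed in advance. Of its 14 listed genes 11 passed the level filter, and 5 of the 11 rose in at least 2 comparisons, a share that was not formed over all tested genes. At rostral 2 wpi and caudal 1 wpi 5 of the 11 rose, against 8.94% and 7.65% of all tested genes. The median log2 change of the 11 at 1, 2, 4 and 6 wpi was 0.83, 0.95, 0.85 and 0.65 rostrally and 0.77, 1.44, 0.55 and 0.61 caudally. The 5 genes that rose were the 5 with the highest levels, ms4a17a.11 (mean 39.6 FPKM), ms4a17a.10 (32.6), ms4a17a.6 (9.91), ms4a17a.9 (4.94) and ms4a17a.8 (2.15). The other 6 had 0.115 to 0.356 FPKM and were not called in any comparison. The cluster consists of related genes, and fragments from stretches that copies share may have been split or lost among them.

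The highest long-arm gene, ms4a17a.11 (ENSDARG00000094809, bases 76575585 to 76588333, plus strand), was at 15.6, 6.25, 4.79, 17.4 and 16.7 FPKM in uninjured rostral libraries and at 26.8, 54.6, 76.5, 50.2 and 72.6 FPKM at rostral 4 wpi. All 5 injured libraries were above all 5 controls, a condition of the rule that named the gene for the largest increase at this time. The log2 change was 2.30 (SE 0.41, adjusted p = 0.0077), or 4.91-fold. At caudal 1 wpi it was at 36.8, 26.5, 39.9, 86.4 and 42.2 FPKM against 12.8, 5.81, 5.72, 17.6 and 18.7 FPKM in caudal controls, a log2 change of 1.99 (adjusted p = 0.0110) with no overlap. It also rose at rostral 1 wpi (1.66, adjusted p = 0.0481), 2 wpi (2.17, adjusted p = 0.0075) and 6 wpi (1.94, adjusted p = 0.0425). The calls at rostral 1 and 6 wpi were lost in 9 and 8 of the 10 fits that left out 1 library, and those at rostral 2 and 4 wpi and caudal 1 wpi in none.

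Its neighbour ms4a17a.9 (ENSDARG00000094854, bases 76608282 to 76633286, plus strand) was the long-arm gene called in most comparisons. It was at 0.954, 1.03, 1.31, 2.28 and 2.82 FPKM in uninjured rostral libraries and at 7.39, 3.73, 6.73, 5.00 and 4.91 FPKM at rostral 2 wpi. The groups did not overlap, and the log2 change was 1.75 (SE 0.31, adjusted p = 0.0054). At caudal 1 wpi the 5 libraries were at 4.55, 2.72, 6.65, 19.2 and 7.85 FPKM, against 1.24, 0.954, 0.907, 1.68 and 2.69 FPKM in caudal controls, a log2 change of 2.18 (SE 0.47, adjusted p = 0.0136). Here the lowest injured library lay just above the highest control, and replicate 4 was far above the others. Its log2 change was 1.504 to 2.182 over the 8 comparisons, and it was called in 7, with caudal 6 wpi the exception (1.73, adjusted p = 0.0600). The calls at rostral 1 wpi, rostral 6 wpi and caudal 4 wpi were lost in 4, 7 and 8 of the 10 fits that left out 1 library.

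The largest rise of the cluster at 1 wpi was that of ms4a17a.8 (ENSDARG00000043802, bases 76637548 to 76655373, plus strand). It went from 0, 0.298, 0.421, 0.741 and 0.547 FPKM in uninjured rostral libraries to 0.817, 1.55, 4.73, 10.7 and 5.28 FPKM at rostral 1 wpi, a log2 change of 3.04 (SE 0.72, adjusted p = 0.0239). In caudal segments it went from 0.116, 0.956, 0.612, 0.256 and 0.802 FPKM to 2.06, 2.76, 4.11, 19.4 and 3.51 FPKM, a log2 change of 3.02 (SE 0.61, adjusted p = 0.0105). The groups did not overlap in either region, which was a condition of the rule that named the gene for these comparisons. Replicate 4 of 1 wpi was highest in both. It also rose at 2 wpi (2.89, adjusted p = 0.0066 rostral and 1.82, adjusted p = 0.0319 caudal) and was back within the control range in part of the libraries at 4 and 6 wpi, at 0.225 to 2.66 FPKM, where it was not called. The other called members were ms4a17a.6, which rose at rostral 2 wpi (2.41, adjusted p = 0.0066), rostral 4 wpi (2.03, adjusted p = 0.0185), caudal 1 wpi (2.29, adjusted p = 0.0161) and caudal 2 wpi (2.29, adjusted p = 0.0168), and ms4a17a.10, which rose at rostral 2 wpi (1.62, adjusted p = 0.0335) and caudal 1 wpi (1.63, adjusted p = 0.0262).

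Genes of antigen handling lie in the same end of the arm. PSMB10 (ENSDARG00000043781, bases 77207693 to 77218637, minus strand) bears the symbol of a catalytic subunit of the immunoproteasome, the form of the proteasome that cuts peptides for antigen presentation. It was at 5.99, 12.9, 9.15, 11.9 and 16.6 FPKM in uninjured rostral libraries and at 37.0, 28.8, 19.5, 47.3 and 36.9 FPKM at rostral 1 wpi, 3.02-fold higher (log2 change 1.59, SE 0.30, adjusted p = 0.0079). In caudal segments it was at 6.61, 15.8, 7.01, 9.99 and 16.9 FPKM in controls and at 33.2, 37.8, 29.0, 44.9 and 35.3 FPKM at 1 wpi, 3.40-fold higher (1.76, SE 0.28, adjusted p = 0.0032). No injured library of 1 wpi overlapped the controls of its region. It was also called at rostral 2 wpi (1.496, adjusted p = 0.0033), caudal 2 wpi (1.37, adjusted p = 0.0179) and rostral 4 wpi (1.02, adjusted p = 0.0343), and at caudal 6 wpi it was at 15.5, 16.0, 11.9 and 27.2 FPKM, overlapping the controls.

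The MHC class II gene mhc2d4b (ENSDARG00000101030, bases 76362874 to 76370661, minus strand), which belongs to the molecules that present peptides to T cells, was chosen after its values were seen. It was at 0.866, 1.21, 1.97, 3.86 and 4.82 FPKM in uninjured caudal libraries and at 4.91, 9.91, 8.37, 14.9 and 10.1 FPKM at caudal 1 wpi, a log2 change of 2.06 (SE 0.46, adjusted p = 0.0152). The lowest injured library was just above the highest control. It was also called at rostral 1 wpi (1.96, adjusted p = 0.0407) and 2 wpi (1.90, adjusted p = 0.0414), and both of these calls were lost in most fits that left out 1 library (8 and 7 of 10). Beside it lies si:ch73-158p21.2 (ENSDARG00000101690, bases 76349919 to 76361982, plus strand), at 0.0596, 0.227, 0.321, 0.353 and 0.542 FPKM in uninjured rostral libraries and at 1.13, 1.05, 1.16, 1.28 and 1.21 FPKM at rostral 2 wpi. These groups did not overlap (log2 change 1.79, SE 0.34, adjusted p = 0.0067), and the gene was also called at rostral 1 and 4 wpi and caudal 1 and 2 wpi (1.55 to 1.99).

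Some leukocyte markers rose in the same comparisons. Of a list of 8 leukocyte genes 6 were matched by symbol (ptprc, CORO1A, LCP1, csf1ra, cd74a and lyz), none at 0 in all libraries, and 4 could be tested. In each of rostral 1, 2 and 4 wpi and caudal 1 and 2 wpi 2 of the 4 rose (LCP1 and csf1ra), csf1ra also rose at caudal 4 wpi, and 0 fell. The summed level of the 6 was 137 to 1286 FPKM (median 339) in uninjured rostral libraries and 151 to 1308 FPKM (median 323) in uninjured caudal ones. At 1 wpi the sum lay within the control range, at 243 to 695 FPKM (median 275) in rostral and 275 to 677 FPKM (median 408) in caudal libraries. It includes cd74a, whose log2 change at 1 wpi was −0.44 rostral and −0.21 caudal and not called, while LCP1 (1.86 and 1.74) and csf1ra (1.25 and 1.42) were called higher. The sum was 720 to 2078 FPKM in the libraries of 2 and 4 wpi, with group medians of 872 to 1293. At 6 wpi it was 899 to 1760 FPKM in rostral and 819 to 1885 FPKM in caudal libraries. The part of leukocytes in the changes of the ms4a17a, PSMB10 and MHC class II genes was not tested. Among germ cell markers, 4 of 4 were matched, with a summed level of 0.453 to 2.24 FPKM over all libraries, and 1 of the 3 tested, NANOS3, rose at rostral 6 wpi and caudal 2, 4 and 6 wpi (1.53 to 2.45 on the log2 scale).

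Other markers moved with injury as well. The myelin genes mbpa and plp1b had a summed level of 38499 to 141046 FPKM in rostral and 36585 to 129969 FPKM in caudal controls, and of 15361 to 34985 FPKM and 12220 to 22999 FPKM at 1 wpi, and plp1b fell at caudal 1 wpi (−2.32, adjusted p = 0.0154). At 2, 4 and 6 wpi the group medians of this sum were 28352 to 39066 FPKM, against 75915 and 69891 FPKM in rostral and caudal controls. Libraries of these times overlapped the controls, with up to 56650 FPKM at rostral 4 wpi and 59244 FPKM at caudal 6 wpi. The gene mbpa was not called in any comparison, and plp1b only at caudal 1 wpi. Of 4 markers of cycling cells PCNA and MCM5 rose at rostral 1 and 2 wpi and caudal 1 wpi, and MCM5 at caudal 2 wpi, with log2 changes of 0.91 to 1.42. Their part in the higher level of the long-arm genes was not tested.

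The genes ckap4 and PACSIN2 at the far end rose as well and were chosen after their values were seen. The gene ckap4 (ENSDARG00000032405, bases 77975221 to 77979432, minus strand), which encodes a membrane protein of the endoplasmic reticulum, was at 2.32, 3.55, 1.85, 2.19 and 2.02 FPKM in uninjured rostral libraries and at 9.37, 8.16, 8.36, 8.02 and 6.21 FPKM at rostral 1 wpi. It was 3.32-fold higher (log2 change 1.73, SE 0.20, adjusted p = 5.1e-04), with all injured libraries far above all controls, and it rose also at rostral 2 wpi (1.58, adjusted p = 8.6e-04) and 4 wpi (0.94, adjusted p = 0.0147) and at caudal 1 wpi (1.17, adjusted p = 0.0058) and 2 wpi (1.11, adjusted p = 0.0182). It lies inside terfa on the other strand, a gene named for a protein that binds telomere repeats. terfa itself was not called in any comparison and was at 1.68 to 4.45 FPKM in uninjured rostral libraries and 3.10 to 6.76 FPKM at rostral 1 wpi. PACSIN2 (ENSDARG00000078014, bases 77933084 to 77955302, plus strand), named for a protein that bends membranes in endocytosis, was at 1.66, 2.33, 1.62, 2.30 and 2.78 FPKM in rostral controls and at 6.72, 4.89, 4.34, 5.77 and 6.33 FPKM at rostral 1 wpi, 2.57-fold higher with no overlap (1.36, SE 0.20, adjusted p = 0.0023). Both genes lie within the span of si:dkey-238k10.2 (bases 77761901 to 78048911, plus strand).

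In the interior of the arm, si:ch211-42i6.2 (ENSDARG00000086130, bases 49262131 to 49295718, plus strand), for which no role is annotated in the tables used, rose in most comparisons. It was at 0.409, 0.343, 0.944, 0.886 and 1.22 FPKM in uninjured caudal libraries and at 1.93, 2.42, 3.82, 3.25 and 3.01 FPKM at caudal 1 wpi, 3.69-fold higher (log2 change 1.88, SE 0.33, adjusted p = 0.0058). The groups did not overlap. It was called as well at rostral 1, 2 and 4 wpi and caudal 2 wpi, with log2 changes of 1.42 to 1.68. At rostral 2 wpi the interior calls also included si:dkey-56m15.4 (1.97, adjusted p = 0.0069) and si:dkey-56m15.8 (1.84, adjusted p = 0.0354), which lie within the span of si:dkey-56m15.2 on the same strand (1.07, adjusted p = 0.0303), so that these 3 calls may share fragments.

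At caudal 4 wpi 2 long-arm genes were called, at rostral 6 wpi 9 and at caudal 6 wpi 1. Among those whose groups did not overlap, ENSDARG00000105976 (bases 72063970 to 72080351, minus strand), which has no symbol, had the largest increase at these times. It was at 0.0574, 0.131, 0.371, 0 and 0.0602 FPKM in uninjured rostral libraries and at 5.39, 0.461, 16.4, 2.12 and 1.099 FPKM at rostral 6 wpi, a log2 change of 3.78 (SE 0.81, adjusted p = 0.0260). The injured libraries spread widely, with replicate 2 close to the highest control and replicate 3 far above the rest. In caudal controls it was at 0.0638, 0.234, 0.505, 0.0562 and 0.221 FPKM, and at caudal 6 wpi at 1.34, 1.85, 1.60 and 2.85 FPKM, a log2 change of 2.80 (adjusted p = 0.0306). This was the one long-arm call at caudal 6 wpi, and it was lost in 7 of the 9 fits that left out 1 library, with the replicate block and with a pseudocount of 0.01. It was called at all 4 rostral times (2.39 to 3.78) and at caudal 4 wpi (2.60, adjusted p = 0.0109), and had log2 changes of 0.37 (adjusted p = 0.693) at caudal 1 wpi and 0.80 (adjusted p = 0.363) at caudal 2 wpi. Whether rostral and caudal changes differed was not tested. The control values are 0 to 6 fragments per library.

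Of the 594 long-arm genes 6 (1.01%) fell in at least 1 comparison, against 60 of 582 genes (10.3%) in the rest of chromosome 4. Of all tested genes 6.19% fell at rostral 2 wpi alone. Long-arm genes held fewer fragments than both, and the part of depth in these counts was not tested. KCNA1 (ENSDARG00000017108, bases 74551606 to 74556277, plus strand) bears the symbol of a voltage-gated potassium channel subunit of axons and was at 10.4, 12.2, 8.56, 6.22 and 6.70 FPKM in uninjured rostral libraries. At rostral 1 wpi it was at 4.23, 4.80, 3.97, 1.92 and 2.82 FPKM, with all injured libraries below all controls (log2 change −1.31, SE 0.28, adjusted p = 0.0139). It also fell at rostral 2 wpi (−1.04, adjusted p = 0.0082) and at caudal 1 wpi (−1.26, adjusted p = 0.0314), where control replicate 5 (4.40 FPKM) lay below injured replicates 1 and 2 (4.97 and 5.10 FPKM). In the other 5 comparisons the change was −0.59 to −0.27 and not called.

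The gene next to it, si:cabz01117780.1 (ENSDARG00000105822, bases 74564192 to 74565834, plus strand), fell in 5 comparisons. It was at 2.85, 2.17, 2.99, 2.38 and 2.40 FPKM in uninjured caudal libraries and at 0.737, 0.580, 1.09, 0.368 and 0.626 FPKM at caudal 1 wpi, a log2 change of −1.82 (SE 0.25, adjusted p = 0.0017) with no overlap. The changes at rostral 1, 2 and 4 wpi were −1.41, −1.23 and −0.99, and at caudal 2 wpi −1.13. GRAMD4 (ENSDARG00000069171, bases 28062473 to 28161198, minus strand), at the border of the arm, fell at rostral 1 wpi (−0.67, adjusted p = 0.0275), rostral 2 wpi (−0.61, adjusted p = 0.0360) and caudal 1 wpi (−0.75, SE 0.16, adjusted p = 0.0131). It went from 3.23, 3.34, 3.10, 3.33 and 3.12 FPKM to 1.86, 1.96, 2.41, 1.66 and 1.62 FPKM at caudal 1 wpi, which is a narrow spread for a gene of the arm.

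The remaining 3 fell once each. The interior gene si:ch211-203o8.5 (ENSDARG00000104362) was at 0.588, 0.497, 1.31, 1.44 and 0.730 FPKM in uninjured caudal libraries and at 0.217, 0.169, 0.155, 0.105 and 0.111 FPKM at caudal 1 wpi, a log2 change of −1.92 (SE 0.32, adjusted p = 0.0042) on 3 to 6 fragments in the injured libraries. The genes si:cabz01062511.2 at rostral 1 wpi (−1.06, adjusted p = 0.0361) and si:cabz01054396.2 at rostral 4 wpi (−0.57, adjusted p = 0.0354) lost the call in 8 and 9 of the 10 fits without 1 library.

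At rostral 4 and 6 wpi, where libraries of equal number deviated together, blocking on the number changed some of these calls. At rostral 6 wpi 4 named genes passed the test only with the block, PSMB10 (1.00, adjusted p = 0.0139 in place of 0.0732), si:ch211-42i6.2 (1.27, adjusted p = 0.0305 in place of 0.0724), mhc2d4b (1.37, adjusted p = 0.0427 in place of 0.207) and ms4a17a.6 (1.63, adjusted p = 0.0355 in place of 0.0691). At rostral 4 wpi the same held for ms4a17a.8 (1.89, adjusted p = 0.0223), mhc2d4b (1.70, adjusted p = 0.0351), PACSIN2 (0.63, adjusted p = 0.0411) and KCNA1 (−0.59, adjusted p = 0.0400). The calls of si:dkey-56m15.2 (1.40, adjusted p = 0.0305) and si:cabz01054396.2 at rostral 4 wpi were lost with it (adjusted p = 0.0554 and 0.0524).

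Among the 5 highest genes of the arm, CCT2 was called once and RAB21 never. CCT2 (ENSDARG00000104674, bases 78022547 to 78026285, minus strand), a subunit of the chaperonin that folds actin and tubulin, was at 32.0, 47.5, 30.1, 27.1 and 29.6 FPKM in uninjured rostral libraries and at 75.8, 61.7, 61.2, 47.9 and 43.4 FPKM at rostral 1 wpi. This was a log2 change of 0.80 (SE 0.21, adjusted p = 0.0348), with control replicate 2 overlapping the injured libraries and the call lost in 7 of the 10 fits without 1 library. It was not called in the other 7 comparisons. RAB21 (ENSDARG00000100752, bases 74087575 to 74109792, minus strand), named for a small GTPase of early endosomes, was at 10.2, 30.5, 21.9, 24.7 and 25.1 FPKM in rostral controls and at 21.4, 24.9, 17.7, 15.4 and 21.0 FPKM at rostral 1 wpi, which overlap widely. Its log2 change was −0.32 to −0.02 over the 8 comparisons and never called. In the rest of chromosome 4, TFEC (ENSDARG00000098745, bases 6032640 to 6047236), a transcription factor of the MITF and TFE family, rose in all 8 comparisons, by 1.20 to 1.78 on the log2 scale. No long-arm gene was called in all 8.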

How the data were processed

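Bulk RNA-seq libraries of zebrafish spinal cord were analysed, 49 in 10 groups of region and time taken from the submitters' labels. The values are FPKM, which the authors deposited in a single table with gene position and length. Per the submitters' processing notes HISAT2 2.0.5, featureCounts 1.5.0-p3 and danRer11 were used. Strand settings and the handling of reads that fit several copies are not given in the sources used here, so near-identical and overlapping genes are uncertain. Dividing each value by the step of 1 fragment gave whole fragments for 100% of values at a tolerance of 0.01. The total of recovered fragments served as the depth, which limits the precision of genes with few fragments.

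The long-arm genes and all gene lists were chosen with earlier results of these data known. Genes with a mean of at least 0.1 FPKM were tested with limma 3.58.1 (lmFit, eBayes with trend, two-sided, Benjamini-Hochberg) on log2(FPKM + 0.1) in R 4.3.3, each injured group against the uninjured group of its region, at a threshold of 0.05. Fold changes are on this scale and understate changes of low genes. Python 3.11.15, pandas 2.3.3, numpy 2.4.6 and matplotlib 3.10.9 made the summaries and plots. On simulated data with 28272 genes, 200 of them changed by 2 on the log2 scale, 122 to 151 of the 200 were recovered over the 8 injury comparisons with 2 to 7 false calls.

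Named genes are those called in most comparisons (up to 6 higher and 6 lower), the 5 highest and the 5 with the largest spread. Also named are those with the largest increase or decrease per comparison among called genes whose groups did not overlap. The genes at either side of the position and of the level filter complete the list. Genes chosen after seeing values are ckap4, mhc2d4b, ms4a17a.6, PACSIN2, terfa, znf977, si:dkey-207l24.2, znf1123, si:dkey-56m15.2, si:dkey-56m15.4 and si:dkey-56m15.8. A marker of the myelin list is not reported here. Symbols came from the table of gene IDs. It gives the symbols KCNA1 and GRAMD4, and cct2 in lower case, to another gene as well, so KCNA1, GRAMD4 and CCT2 are named with their Ensembl identifiers.

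Libraries of equal number deviated together in every pair, by a correlation over 0.1, at rostral 4 wpi (0.103 to 0.323), rostral 6 wpi (0.132 to 0.278) and between uninjured caudal and rostral segments (0.299 to 0.610). The main fits were unpaired in every comparison, these included. Results with the replicate block are named as such. Alternatives were pseudocounts of 1 and 0.01, 3 other filters, quantile normalization, scaling to the total of fragments on genes, voom on the recovered fragments, no trend, 1 fit of all groups, the replicate block, replicates 1 to 3 or 4 and 5 alone, and leaving out each library. Small RNA, NLR and zinc finger genes were recognised by symbol alone.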

Additional observations from a re-analysis of the deposited data

Results flagged for a closer look

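In 6 of the 72 groups of libraries checked for the named genes, 1 library lay far from the others of its group, where chance gives about 1 in 20 (Dixon's criterion at 95%). In uninjured caudal cord, si:ch73-158p21.2 was at 0.917 FPKM in replicate 5 and at 0.121 to 0.292 FPKM in the others. In uninjured rostral cord, replicate 2 was highest for CCT2 (47.5 FPKM, the others 27.1 to 32.0 FPKM) and for ckap4 (3.55 FPKM, the others 1.85 to 2.32 FPKM), and replicate 4 was at 0 FPKM for si:dkey-56m15.2 (the others 0.0577 to 0.0749 FPKM). At caudal 1 wpi, znf1123 was at 1.44 FPKM in replicate 4 (the others 0.0988 to 0.465 FPKM), and CERK, a gene of the rest of chromosome 4, was at 2.02 FPKM in replicate 3 (the others 2.41 to 2.56 FPKM). Of 104 pairs of rostral and caudal changes of named genes, none had every injured library on opposite sides of the controls.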

How the results depend on the processing

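The median change of the long-arm genes stayed above 0 in all 8 injury comparisons under each alternative (0.05 to 0.57), and no named change reversed. Each of these medians was taken over the 594 genes or the part of them still tested. The other filters added none of the 1610 listed genes to them, so the part of the level filter in these medians was not tested. Between uninjured regions, where no gene was called, it was −0.05 to 0.10. Counts moved more. With all groups in 1 fit, 35, 37 and 36 genes were called at rostral 1, 4 and 6 wpi and 62, 36, 13 and 12 at caudal 1, 2, 4 and 6 wpi. Scaling to the total of fragments on genes gave 32 and 29 at rostral 1 and 6 wpi and 63, 23, 9 and 12 at the 4 caudal times, with medians of 0.491, 0.399, 0.472 and 0.538 at the rostral times and 0.519, 0.441 and 0.566 at caudal 1, 4 and 6 wpi. Under this scaling the median of all tested genes was itself 0.19 to 0.31, and the long arm lay 0.16 to 0.29 above it. All 32 calls at rostral 1 wpi and all 23 at rostral 4 wpi were then higher, as were 61 of 63 at caudal 1 wpi, and so were all 22 at rostral 4 wpi by voom.

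A pseudocount of 1 gave medians of 0.0710, 0.0865, 0.0928, 0.0876 and 0.0980 at rostral 2, 4 and 6 wpi and caudal 1 and 6 wpi, and a count of 2 at caudal 6 wpi. A pseudocount of 0.01 gave 0.392, 0.464, 0.485 and 0.469 at rostral 2, 4 and 6 wpi and caudal 6 wpi, and a count of 0 at caudal 6 wpi. Quantile normalization gave a median of 0.149 at rostral 4 wpi and a count of 3 at caudal 6 wpi. A mean of at least 1 FPKM gave a median level of 1.91 FPKM and left 21 calls at rostral 2 wpi and 2 at caudal 6 wpi, no filter 5 at rostral 6 wpi, the filter in the libraries compared 2 at caudal 6 wpi, and voom called 14 at rostral 6 wpi and 3 at caudal 6 wpi. The causes were not tested.

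With the replicate block, 15 genes were called at rostral 6 wpi, 7 at caudal 2 wpi and 0 at caudal 6 wpi, and the other counts were 22, 41 and 23 at rostral 1, 2 and 4 wpi, 33 and 2 at caudal 1 and 4 wpi, and 0 between uninjured regions. Outside rostral 4 and 6 wpi and the uninjured regions, libraries of equal number deviated together as well, though not by a correlation over 0.1 in every pair. There the mean correlation was 0.126 (caudal 2 wpi) to 0.228 (caudal 6 wpi), and the lowest pair was at 0.0226 (rostral 1 wpi). With replicates 1 to 3 alone the counts were 9, 14, 7 and 1 at the rostral and 9, 6, 1 and 2 at the caudal times (6 higher and 3 lower at rostral 1 wpi, 11 and 3 at rostral 2 wpi, 7 and 0 at rostral 4 wpi, 0 and 1 at rostral 6 wpi, 6 and 3 at caudal 1 wpi, 4 and 2 at caudal 2 wpi, 0 and 1 at caudal 4 wpi). With replicates 4 and 5 alone 0 genes were called in the 7 comparisons that could be fitted, with a median of 0.140 at rostral 6 wpi. Caudal 6 wpi could not be fitted with them.

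Leaving out 1 library at a time gave counts of 8 to 19, 26 to 67, 7 to 19 and 1 to 12 at rostral 1, 2, 4 and 6 wpi and of 14 to 51, 5 to 37, 1 to 6 and 0 to 7 at the caudal times, and 0 between uninjured regions. Counts moved over 1.5 times at rostral 1 wpi without control 3 (8) or injured 3 or 4 (11 each), at rostral 2 wpi without control 3 (27), control 5 (67) or injured 1, 3 or 4 (26 each), and at rostral 4 wpi without control 3 or injured 5 (10 each), injured 1 (7) or injured 4 (8). At rostral 6 wpi they did so without controls 1 to 4 (5, 3, 2 and 4) or injured 2 to 5 (3, 3, 1 and 2). At caudal 1 wpi control 5 (51) and injured 4 (14) had this effect, and at caudal 2 wpi controls 1, 3, 4 and 5 (7, 6, 6 and 37) and injured 2 and 4 (5 and 7). At caudal 4 wpi it was control 5 (6), controls 1 to 4 and injured 2 to 5 (1 each), and at caudal 6 wpi control 5 (7), controls 1, 2 and 4 and each injured library (0 each). Of the checks on named changes, 67 without 1 library lost the call and 193 kept its status, and under the other alternatives the numbers were 71 and 261.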
